A study of Rattus norvegicus with 18 samples.

Results

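Myelin is the layered membrane that oligodendrocytes wrap around axons in the brain, and the genes described here encode the proteins that build, seal or accompany it. The set was given by name as Mbp, Mog, Mag, Mobp, Cnp, Mal, Cldn11, Opalin and Enpp2. All 9 were found among the 19113 genes of the processed table, and all 9 passed the minimum for testing, a mean value above 1 over all libraries, as 18172 genes did in all. No measured value was used to choose them, although earlier results of these data were known when they were named.

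The RNA came from micropunches of the basolateral amygdala (BLA), taken from 18 adult male Sprague-Dawley rats, with 6 rats in each of 3 housing groups. The rats were 8 weeks old at the start, before the weeks of housing given below, and thus older when tissue was taken. Rats in standard housing (SH) were kept singly in this experiment. Rats with environmental enrichment (EE) spent the active part of the day in a shared multi-level cage with toys and shelters, in groups of 10, until tissue was taken. Rats with enrichment removal (ER) had the same enrichment for 4 weeks and then lived singly with none for 2 weeks. Enriched rats shared cages, a source of spread that tests over rats do not cover. Each rat gave 1 library of polyadenylated RNA, and the 3 contrasts were EEvSH for the experience of enrichment, ERvEE for its removal and ERvSH for both in sequence.

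In the mature brain a single oligodendrocyte wraps many axon segments, and compaction of the wraps needs a small set of very abundant proteins. Mbp, myelin basic protein, holds the cytoplasmic faces of the membrane together, and Mobp encodes a small basic protein of the same compartment. Mog stands on the outermost surface of the sheath, Mag on the innermost membrane next to the axon, and Cnp, a phosphodiesterase, keeps cytoplasmic channels through the sheath open. Mal is a lipid-raft protein of membrane sorting, Cldn11 forms the tight junctions between wraps, Opalin is a membrane glycoprotein of oligodendrocytes, and Enpp2 encodes autotaxin, a secreted enzyme that makes lysophosphatidic acid and is also abundant in the choroid plexus.

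Promoter sequences of the members are shown as a description. Whether they bear on the levels given further on was not tested. The RefSeq promoter table held 7 of the 9 members (Mbp with 2 start sites), and the windows here are the 250 bases before the start, on build GRCr8. Capitals mark matches to 3 motifs searched on both strands: the SOX core ACAAAG, bound by factors of the Sox10 family, the MYRF core CTGGNAC, bound by the myelin regulatory factor Myrf, and the GC box GGGCGG. On the strand shown a match can stand as its reverse complement. Matches to different motifs were counted separately, overlaps included. The 4 windows shown are the ones that held the SOX core at the only start site listed, and among them are the members closest to the common profile of the set (Mag) and farthest from it (Mobp).
Mag, chr1:95291045-95291294, minus strand: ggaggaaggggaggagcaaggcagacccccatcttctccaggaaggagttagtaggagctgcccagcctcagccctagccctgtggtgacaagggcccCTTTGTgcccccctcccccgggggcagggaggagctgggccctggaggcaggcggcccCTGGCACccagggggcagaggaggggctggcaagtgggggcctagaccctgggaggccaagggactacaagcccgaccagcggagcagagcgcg
Opalin, chr1:249858191-249858440, minus strand: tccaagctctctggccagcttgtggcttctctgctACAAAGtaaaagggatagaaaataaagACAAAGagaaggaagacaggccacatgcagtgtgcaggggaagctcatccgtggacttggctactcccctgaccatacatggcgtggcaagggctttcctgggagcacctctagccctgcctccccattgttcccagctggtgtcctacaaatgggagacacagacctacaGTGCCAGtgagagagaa
Mobp, chr8:128746982-128747231, plus strand: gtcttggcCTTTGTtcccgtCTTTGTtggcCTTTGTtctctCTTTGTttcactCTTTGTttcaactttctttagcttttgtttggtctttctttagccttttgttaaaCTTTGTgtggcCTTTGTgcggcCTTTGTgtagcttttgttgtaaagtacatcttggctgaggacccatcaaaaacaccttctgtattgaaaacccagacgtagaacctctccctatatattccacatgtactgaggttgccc
Cnp, chr10:86011254-86011503, plus strand: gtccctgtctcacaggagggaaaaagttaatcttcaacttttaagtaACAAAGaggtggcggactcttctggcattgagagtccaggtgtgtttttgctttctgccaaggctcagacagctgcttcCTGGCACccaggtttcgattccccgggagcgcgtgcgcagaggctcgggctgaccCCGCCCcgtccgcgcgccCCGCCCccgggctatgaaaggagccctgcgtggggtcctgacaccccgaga

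The SOX core was found in windows of 5 of the 7 members, against 16.3% of the 33469 promoters of the table. In Mbp it lay only in the window of the second start site. The Mobp window stood out by repetition, with 8 matches on the opposite strand, from −242 to −120 relative to the start site, within a stretch rich in T. The MYRF core was found in 6 of the 7 members (14.8% of all promoters). It was missing from the Mobp window and from the window of the second Mbp start site. The shares of all promoters count windows, of which the members had 8, and 6 of the 8 held the MYRF core. The GC box was present in 4 of the 7 (30.5% of all), the TATA box TATAAA in 0 of the 7 (12.9%), and the E-box CANNTG, a common element of basic helix-loop-helix factors such as Olig2, in 6 of the 7 (65.5%). GC content in the 4 windows shown was 70.0% in Mag, 60.4% in Cnp, 53.2% in Opalin and 41.6% in Mobp, beside a median of 51.2% over all promoters. A match describes letters in a window and is not a measured binding site.

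The libraries held 17753797 to 23450276 reads, recovered from the normalized values (median 20532707 in SH, 19452376 in EE and 21457172 in ER). The 9 members took 0.232% to 0.398% of the reads of SH rats (median 0.266%), 0.215% to 0.539% of those of EE rats (median 0.365%) and 0.216% to 0.352% of those of ER rats (median 0.282%). The lowest read count of any member in any library was 669, where counting alone gives an error of 3.87%, small beside the spread between rats given below. Over all genes, SH 1 and SH 3 lay away from the remaining libraries. On the first principal component (20.4% of the variance) SH 3 lay at −137.2 and SH 1 at −45.1, the others between −0.22 and 21.7. SH 3 had a median correlation with the other libraries of 0.944 and SH 1 of 0.962, where the other 16 had 0.970 to 0.977. The members' mean profile was only weakly related to the number of reads over the 18 libraries (Pearson r = 0.064, a description).

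Every member had its highest group mean in EE, and none differed between groups past the threshold. Normalized values are read numbers scaled by 1 size factor per library. They are not corrected for gene length, so levels are compared between rats and not between genes. Log2 fold changes come from limma fitted over all 18172 genes on log2(value + 1), with their standard error (SE) and Benjamini-Hochberg adjusted p. In punched tissue, fewer oligodendrocytes and less RNA per oligodendrocyte cannot be told apart.

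Among the proteins of compact myelin, Mbp had normalized values of 31622 to 54620 among SH rats (median 38404), 31729 to 74591 among EE rats (median 51724) and 30660 to 49957 among ER rats (median 39211). The groups overlapped, but 3 of the 6 EE rats lay above the highest SH rat, and all 6 ER rats lay below the EE median. The log2 fold change of Mbp was 0.37 (SE 0.19, 95% confidence interval −0.02 to 0.75, adjusted p = 0.749) in EEvSH and −0.38 (SE 0.19, adjusted p = 1.00) in ERvEE. In ERvSH it was −0.0092 (SE 0.19).

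Mobp ran from 1505 to 4038 among SH rats (median 2519), from 2098 to 5969 among EE rats (median 3683) and from 2069 to 3797 among ER rats (median 2838). Its lowest value by far was that of SH 3, with the other SH rats at 2434 or more. In log2 fold change Mobp stood at 0.53 (SE 0.22, interval 0.06 to 1.00, adjusted p = 0.749) in EEvSH, 0.13 (SE 0.22) in ERvSH and −0.40 (SE 0.22) in ERvEE. Without SH 3 the EEvSH value was 0.37 and the ERvSH value −0.03, and without both SH 1 and SH 3 the values were 0.32 and −0.08, so the size of the Mobp difference between EE and SH moved with a single library.

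At the surfaces of the sheath, Mog had 1024 to 1618 among SH rats (median 1184), 1007 to 2181 among EE rats (median 1603) and 1026 to 1447 among ER rats (median 1171). The ER rats formed the narrowest group, inside the range of both others. The log2 fold change of Mog was 0.35 (SE 0.16, adjusted p = 0.749) in EEvSH, −0.05 (SE 0.16) in ERvSH and −0.40 (SE 0.16, interval −0.74 to −0.06, adjusted p = 1.00) in ERvEE. Mag, the adhesion protein on the axon side, ran from 2545 to 4255 among SH rats (median 2923), from 2241 to 5912 among EE rats (median 3826) and from 2403 to 4050 among ER rats (median 3176). The lowest and the highest of all 18 Mag values were both EE rats. In log2 fold change Mag stood at 0.32 (SE 0.20) in EEvSH, 0.0094 in ERvSH and −0.31 (SE 0.20) in ERvEE, with adjusted p of 0.749, 0.991 and 1.00 from limma. Without EE 1 the EEvSH and ERvEE values of Mag were 0.20 and −0.19, and without EE 6 they were 0.48 and −0.47.

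Cnp, in the cytoplasmic channels, had 5364 to 8211 among SH rats (median 5947), 5222 to 11086 among EE rats (median 7876) and 5215 to 7687 among ER rats (median 6339). Its SH and ER groups lay on top of each other, with a log2 fold change of 0.0014 (SE 0.16) in ERvSH, while those of EEvSH and ERvEE were 0.32 and −0.32. Cldn11, of the tight junctions, had 2507 to 4612 among SH rats (median 3289), 2252 to 6119 among EE rats (median 4211) and 2349 to 3970 among ER rats (median 3030). In ERvEE it had the most negative log2 fold change of the set, −0.43 (SE 0.21, interval −0.87 to 0.02, adjusted p = 1.00), and in ERvSH −0.14 (SE 0.21). Its EEvSH value of 0.29 became 0.18 without EE 1, 0.19 without EE 5 and 0.46 without EE 6.

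Mal, the membrane sorting protein, was the most variable member, with 2711 to 5642 among SH rats (median 3473), 2356 to 8048 among EE rats (median 4752) and 2458 to 4578 among ER rats (median 3699). A single rat, EE 1, was above the highest SH rat, and the log2 fold change in EEvSH was the smallest of the set at 0.26 (SE 0.23, adjusted p = 0.769). That value was 0.10 without EE 1, 0.16 without SH 5 and 0.45 without EE 6, and its ERvEE value of −0.38 became −0.22 without EE 1 and −0.58 without EE 6. Opalin, the glycoprotein, ran from 1455 to 2649 among SH rats (median 1788), from 1474 to 3971 among EE rats (median 2249) and from 1520 to 2494 among ER rats (median 1922). Its ERvEE value of −0.26 (SE 0.20) was the smallest in size of the set in that contrast, and 2 of the 6 ER rats exceeded the EE median. Without EE 1 the Opalin values were 0.17 in EEvSH and −0.11 in ERvEE, and without EE 6 they were 0.46 and −0.39.

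Enpp2, the secreted enzyme autotaxin, had 719 to 1540 among SH rats (median 1171), 1087 to 2323 among EE rats (median 1593) and 1084 to 1446 among ER rats (median 1193). It came closest to a separation of EE from SH, with 4 of the 6 EE rats above the highest SH rat and none below the lowest. Its log2 fold change in EEvSH, 0.54 (SE 0.17, interval 0.18 to 0.89, unadjusted p = 0.00535), ranked 84 among 18172 genes by p and did not pass after adjustment (adjusted p = 0.749 from limma). In ERvEE it was −0.39 (SE 0.17) and in ERvSH 0.14 (SE 0.17). SH 3 again gave the lowest value. Without SH 3 the EEvSH value was 0.41 and the ERvSH value 0.02.

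**Figure D1:**
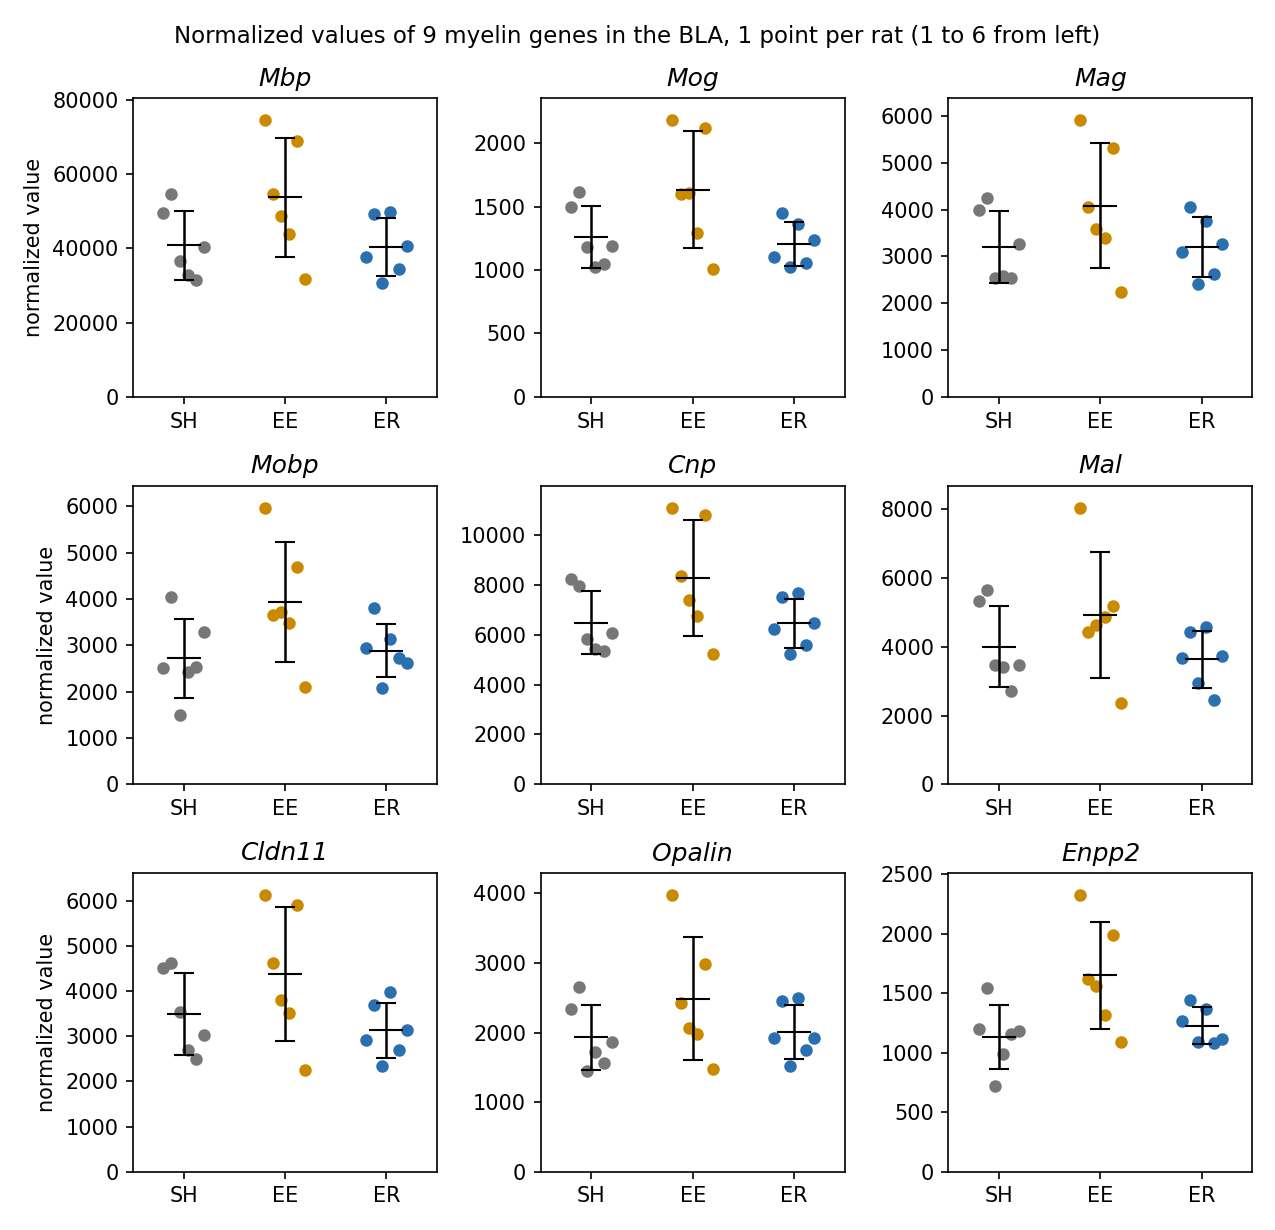
Normalized value of each myelin gene (linear axes from 0) in every rat, by housing group, with replicate numbers running from left to right. Black marks are the mean and SD of 6 rats. EE means are the highest of the 3 groups for all 9 genes, yet in each panel EE 6, the rightmost EE point, is the lowest EE rat and overlaps SH and ER.

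Counted over the set, 9 of 9 members lay above 0 in EEvSH, where 53.7% of all genes did, and the median was 0.32 beside 0.0185 over all genes tested. In ERvEE 9 of 9 were negative, against 49.1% of all genes, with a median of −0.38 beside 0.003. In ERvSH 5 of 9 were positive (51.8% of all genes) with a median of 0.0014 beside 0.0103. As both EEvSH and ERvEE contain the EE rats, the counts of these contrasts are not separate evidence. The members also vary together, so they are not 9 separate observations.

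No member was called by limma at an adjusted p under 0.05, 0 of 9 in each contrast, where the share of all genes called was likewise 0% (EEvSH), 0% (ERvSH) and 0% (ERvEE). The adjusted p-values of the members lay between 0.749 and 0.769 in EEvSH, between 0.769 and 0.998 in ERvSH and at 1.00 in ERvEE. At an unadjusted p under 0.05, 3 of 9 members (Mog, Mobp and Enpp2) were higher in EEvSH, beside 3.35% of all genes. In ERvEE 2 of 9 (Mog and Enpp2) were lower, beside 2.28%. In ERvSH 0 of 9 were higher, beside 4.57%. The intervals in ERvSH were wide, from −0.61 to 0.36 for Mal and from −0.34 to 0.59 for Mobp, and therefore do not show that the levels of ER and SH rats were equal.

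**Figure D2:**
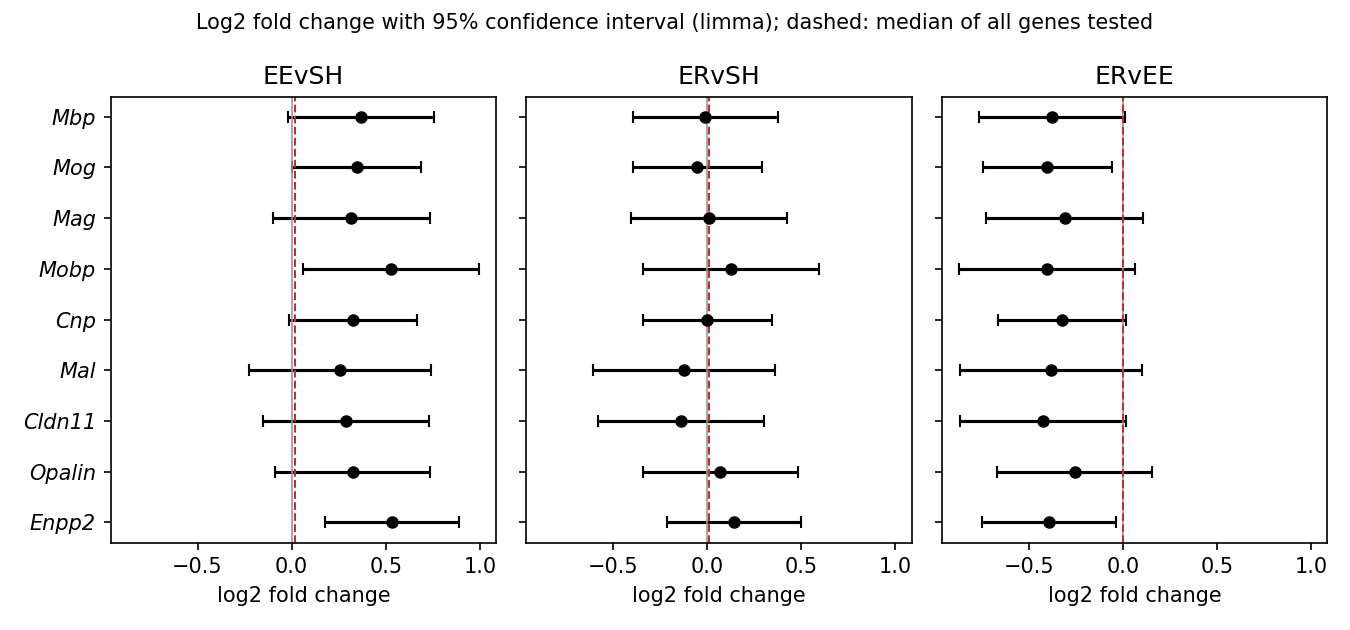
Log2 fold change of each myelin gene in the 3 contrasts (horizontal axis, log2 scale), with 95% confidence intervals from limma, n = 6 rats per group. The dashed line is the median of all genes tested. Points lie right of 0 for all 9 genes in EEvSH (0.26 to 0.54), left of 0 in ERvEE (−0.43 to −0.26) and around 0 in ERvSH (−0.14 to 0.14), and most intervals reach 0.

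The pattern between rats was more uniform than that between groups. EE 1 was the highest of all 18 rats for 9 of 9 members, on average 0.842 above the mean of all rats on the log2 scale. EE 5 followed (0.618 above the mean) and was first or second for 8 of 9. The lowest rat of the EE group for all 9 members was EE 6, which was also the lowest of all rats in the average (−0.500) and last for 4 members. The enriched group thus held both ends of the range.

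In SH the mean level of the members ran from −0.402 (SH 3) to 0.342 (SH 2), with a median of −0.23. In EE it ran from −0.500 to 0.842 (median 0.226), and in ER from −0.447 (ER 3) to 0.184 (ER 2), with a median of −0.134. SH 2 was the highest SH rat for 8 members, and ER 3 the lowest ER rat for 7. The coefficient of variation was 27.2% to 37.2% in EE, 19.3% to 31.7% in SH and 12.7% to 22.7% in ER, and for each member the EE group was the most variable and the ER group the least. That order of spreads is a description and was not tested.

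**Figure D3:**
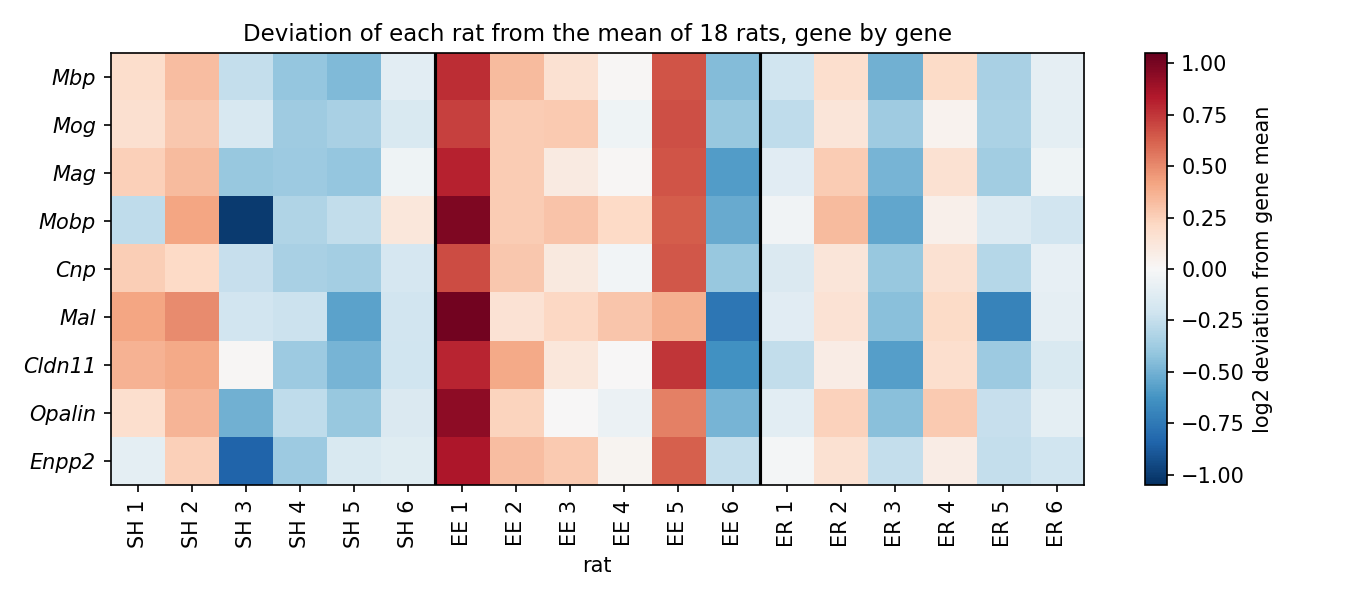
Log2 deviation of each rat from the mean of 18 rats (colour scale, red above and blue below), myelin genes in rows and rats in columns, with black lines between the housing groups. Columns are nearly of 1 colour, from EE 1 (0.69 to 1.01 above the mean) to EE 6 (0.25 to 0.76 below it), and the clearest exception is Mobp in SH 3 (−1.01).

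Rats of the same housing differed in these genes more than in most others. The SD of log2 values within groups was 0.314 (Mog and Cnp) to 0.453 (Mal), with a median of 0.382. Over the 4599 genes with a mean of at least 1000 the median SD was 0.152, and each member varied more than 89.1% to 96.4% of them.

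Taken as deviations from the group means, the members varied together from rat to rat. Over the 36 pairs, Pearson r had a median of 0.907 (range 0.688 to 0.988) and Spearman rho a median of 0.880 (0.643 to 0.986). Permuting rats within groups (100000 permutations, two-sided) gave an adjusted p of at most 0.00592 for r and 0.00956 for rho over the 36 pairs, so all pairs passed. Mbp and Cnp were the closest pair (r = 0.988, adjusted p = 2.12e-05 from the permutation test, whose smallest possible p is 1e-05), and Mobp and Cldn11 the loosest (r = 0.688). Without the 2 rats farthest from the median of the first gene, the median r was 0.845 (0.56 to 0.98). Without SH 1 and SH 3 it was 0.949 (0.859 to 0.993). All values of a rat come from 1 punch sample and 1 library. The permutation asked only whether the genes of a pair were unrelated within groups. Pairs of other genes were not tested, so the count of pairs that passed is not shown to be particular to the set.

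Mag followed the mean of the other 8 members most closely (r = 0.989 over 18 rats), with Mbp (0.987) and Cnp (0.980) next, and Mobp (0.862), Enpp2 (0.878) and Mal (0.901) least. As a ratio to the other members, Mag varied within groups by an SD of 0.056 on the log2 scale, where its own level varied by 0.388. The ratio of Mobp varied by 0.243, and in SH 3 it stood at −0.681 relative to its mean over all rats. In the same library the ratio of Enpp2 stood at −0.499 and that of Cldn11 at 0.467. The ratio of Mal was lowest in ER 5, at −0.406. The members other than these kept their proportions in every rat to within 0.26 on the log2 scale.

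The direction of the set in EEvSH and ERvEE did not turn when any single rat was left out, but its size did move. In EEvSH the median of the members was 0.23 without EE 1, 0.26 without EE 5 and 0.48 without EE 6. In ERvEE it was −0.27 without EE 1 and −0.52 without EE 6. Without EE 6, all 9 members had an unadjusted p under 0.05 in both contrasts, while over all genes such counts went from 1067 to 1360 in EEvSH and from 665 to 1314 in ERvEE. Without EE 1 there was 1 such member in EEvSH (742 of all genes) and 0 in ERvEE (500 of all genes), and without EE 5 the counts were again 1 and 0 (987 and 424 of all genes). No member passed after adjustment in any of these fits. Without SH 1 and SH 3 the medians were 0.38 in EEvSH and −0.38 in ERvEE, and 9 of 9 members kept a positive sign in the first and 9 of 9 a negative sign in the second.

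**Figure D4:**
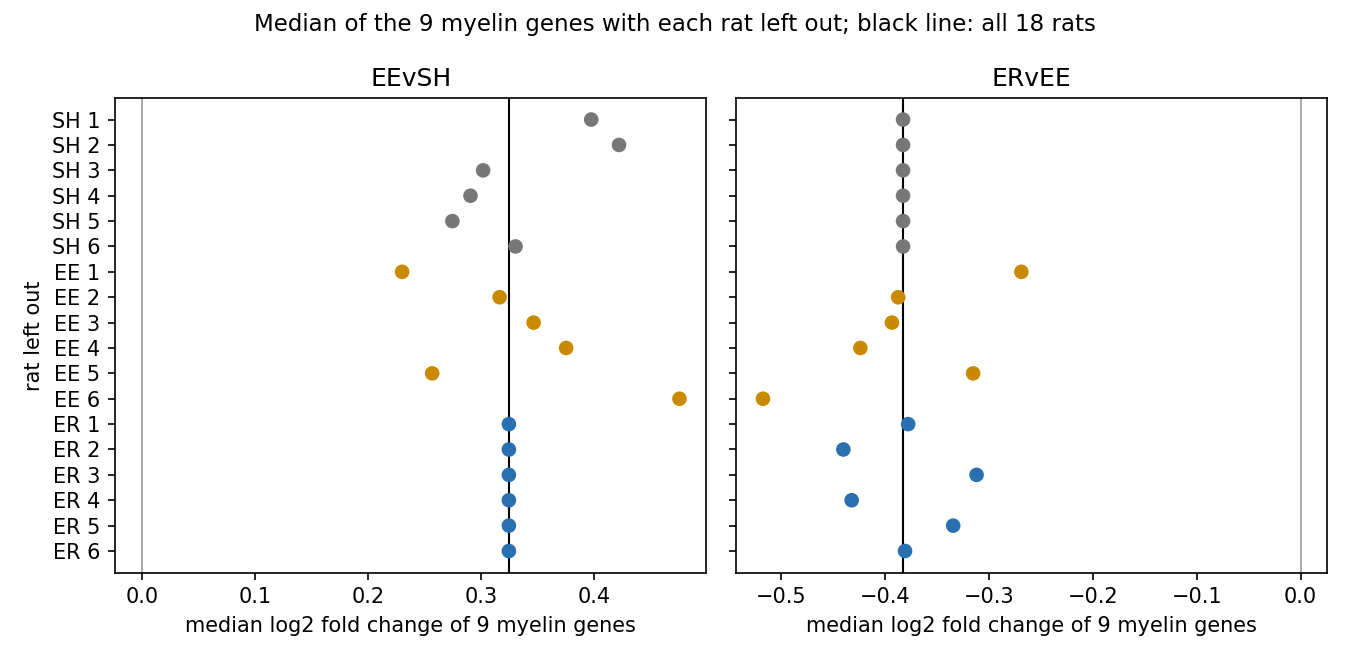
Median log2 fold change of the 9 myelin genes (horizontal axis) with each rat left out in turn (vertical axis), for EEvSH and ERvEE. The black line is the value with all 18 rats (0.32 and −0.38). Leaving out EE 1 moves the medians toward 0, to 0.23 and −0.27, and leaving out EE 6 moves them away from it, to 0.48 and −0.52.

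Other genes were ranked by the likeness of their levels to those of the set. Likeness was the Pearson r of log2 values over the 18 rats with the mean standardized profile of the members, over 15211 genes with a mean of at least 10, whose median r was 0.022. It includes the differences between groups and is a description. Among the closest were Gsn (r = 0.969), an actin-severing protein, Tspan2 (0.963), a tetraspanin of oligodendrocytes, Tf (0.961), transferrin, and Fa2h (0.955), which hydroxylates fatty acids of myelin lipids. Further ones were Bcas1 (0.947), a protein of newly myelinating oligodendrocytes, Gna12 (0.945), a G protein subunit, Lpar1 (0.945), a receptor for the lysophosphatidic acid that autotaxin makes, Ugt8 (0.939), which makes galactosylceramide, and Prkcq (0.938), a protein kinase C. In all, 29 genes reached r of 0.9 and 149 reached 0.8.

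Of the list of other myelin and mature oligodendrocyte genes, 37 of 38 symbols were measured and tested. In EEvSH 36 of 37 lay above 0 (median log2 fold change 0.22), in ERvEE 36 of 37 a negative one (median −0.25), and in ERvSH 17 of 37 were positive (median −0.012). At an unadjusted p under 0.05, 5 of 37 were higher in EEvSH, beside 3.35% of all genes, and 6 of 37 lower in ERvEE, beside 2.28%, and 0 passed after adjustment in any contrast. The exceptions in sign were Cmtm5 in EEvSH (−0.07) and Tppp, a tubulin polymerization protein, in ERvEE (0.18). They are named after their values were seen. Gpm6b, a membrane protein that neurons and astrocytes also express, was less like the set (r = 0.375), with group means of 9380 (SH), 10420 (EE) and 10150 (ER). Pllp, plasmolipin, ran closer (r = 0.818) and had a log2 fold change of −0.29 (SE 0.15) in ERvEE.

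Genes of myelin lipid synthesis ran with the set to differing degrees. Over the list, 17 of 20 were positive in EEvSH (median 0.12) and 18 of 20 negative in ERvEE (median −0.056). Ugt8 had group means of 1359 (SH), 1940 (EE) and 1478 (ER), and log2 fold changes of 0.49 (SE 0.16) in EEvSH and −0.36 (SE 0.16) in ERvEE. Gal3st1, which makes sulfatide from its product, had group means of 118.8, 164.6 and 125.2 (EEvSH 0.47, SE 0.18). Aspa, which frees acetate for lipid synthesis, had 299.9, 377.3 and 321.1 (EEvSH 0.33, SE 0.17). Among the sterol enzymes of the list, Lss had r = 0.473 and Msmo1 r = −0.21, both named after their values were seen. None of the 20 passed after adjustment.

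For lineage factors and precursor markers, 19 of 21 were positive in EEvSH (median 0.24) and 16 of 21 negative in ERvEE (median −0.16), with 0 called. Their r with the set ran from 0.031 to 0.947 (median 0.696). The exceptions in sign in EEvSH were Sox8 (−0.17, r = 0.063) and Tcf7l2 (−0.05, r = 0.608), named after their values were seen. Of the transcription factors, Olig2, the basic helix-loop-helix factor that sets the lineage, had r = 0.821 with the set, with an EEvSH log2 fold change of 0.56 (SE 0.14) and an ERvEE value of −0.37 (SE 0.14). Sox10, which switches on many myelin genes, had means of 897.9, 1091 and 874.4 and ran closely with the set (r = 0.90). Olig1 (r = 0.843) had an EEvSH value of 0.19 (SE 0.16), and Myrf, the activator of terminal differentiation, also 0.19 (SE 0.12) and −0.09 (SE 0.12) in ERvEE.

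The lists of signalling partners of Mag and Enpp2 had medians near 0. In the Nogo receptor pathway, through which Mag, Omg and Rtn4 restrain axon growth, 6 of 11 genes were positive in EEvSH (median 0.024) and 4 of 11 negative in ERvEE (median 0.048). The receptor Rtn4r was the most inverse to the set (r = −0.869), with group means of 2808 (SH), 2281 (EE) and 2792 (ER), and log2 fold changes of −0.30 (SE 0.15) in EEvSH and 0.31 (SE 0.15) in ERvEE. Of its ligands, Rtn4 had r = 0.10 and Omg, expressed by oligodendrocytes and neurons, 0.560. Of the relatives of the receptor, Rtn4rl1 had −0.217 and Rtn4rl2, named after its value was seen, −0.82. Over the 11 genes r ran from −0.869 to 0.687 (median 0.10). Of the lysophosphatidic acid genes downstream of Enpp2, 6 of 10 were positive in EEvSH (median 0.021). Lpar1 had means of 1104 (SH), 1479 (EE) and 1041 (ER), with −0.45 (SE 0.21) in ERvEE, Lpar4 had 90.5, 90.4 and 81.6, and Lpar2 and Lpar3 were at the edge of detection, with means under 5.

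Other sources of the same transcripts were read from marker lists. The choroid plexus, where Enpp2 is abundant, was near absent by the 10 of its 14 listed markers that were measured. Their summed value was 36.5 to 94.3 in SH, 37.7 to 138.1 in EE and 38.3 to 81.1 in ER. Ttr, the defining transcript of the choroid plexus, was at 0 in some rats of every group and at most 44.2. Its group means were 1.43 (SH), 11.1 (EE) and 6.65 (ER). Of those 10 markers 8 were positive in EEvSH (median 0.36) and 5 negative in ERvEE (median 0.01), at values of a few reads. Kl, Kcnj13 and Slc4a5 were likewise low, with group means of at most 14.7. For peripheral myelin, the sum of the 6 measured genes, 1798 to 2409 in SH, 1829 to 2822 in EE and 1701 to 2071 in ER, came mostly from Sox2 and Pmp22, which brain cells express too. Prx (group means of 35.7 to 43.9), Pmp2 (7.24 to 9.75) and Egr2 (53.2 to 65.6) were low in every group. Of the 6 genes 5 were positive in EEvSH (median 0.19) and 6 negative in ERvEE (median −0.35).

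Lists of other cell types of the BLA moved with or against the set, and their part in the result was not tested. Microglia markers had a median r of 0.611, with 9 of 13 positive in EEvSH (median 0.12) and 12 of 13 negative in ERvEE (median −0.28). Their summed value was 7597 to 11150 in SH, 6881 to 11880 in EE and 6684 to 9464 in ER. The receptors Cx3cr1, P2ry12 and Csf1r had EEvSH values of 0.48 (SE 0.21), 0.33 (SE 0.15) and 0.27 (SE 0.14), whereas Tmem119 had −0.54 (SE 0.19). Endothelial markers were positive in 8 of 8 in EEvSH (median 0.09) and negative in 8 of 8 in ERvEE (median −0.14), with sums of 5181 to 6664 in SH, 5457 to 7363 in EE and 5091 to 5987 in ER. Cdh5, the junction protein of vessels, had means of 207.6, 234.2 and 183.5, and Flt1 (0.610), Tek (0.362) and Slco1a4 (0.302) ran with the set to differing degrees of r.

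Astrocyte markers had a median r of 0.372, with 5 of 11 positive in EEvSH (median −0.03) and 10 of 11 negative in ERvEE (median −0.12). Their sums were 81390 to 105400 in SH, 78880 to 104300 in EE and 76610 to 87130 in ER. Gfap was the most like the set among them (r = 0.739), ahead of Gja1 (0.654), S100b (0.544), Aldh1l1 (0.434) and Aqp4 (0.35). Gja1 is named after its value was seen. The lowest r of the 11 was 0.145.

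Neuronal markers had a median r of −0.487, with 1 of the 14 positive. Of the 14, 6 were positive in EEvSH (median −0.011) and 2 negative in ERvEE (median 0.08), and the sums were 220200 to 267000 in SH, 222900 to 281100 in EE and 249100 to 289000 in ER. Snap25 (r = −0.674), Stmn2 (−0.527), Syt1 (−0.466) and Rbfox3 (−0.344) were inverse. Gad1 was nearly unrelated (−0.095), and Gad2, an enzyme of GABA synthesis, was the exception (0.376), both named after their values were seen. For markers of amygdalar projection neurons the median r was −0.483, with 4 of 10 positive in EEvSH (median −0.013) and 2 of 10 negative in ERvEE (median 0.20), and sums of 67760 to 86000 in SH, 67780 to 97100 in EE and 80600 to 91070 in ER. Neurod6 (r = −0.787), Rspo2 (−0.727) and Slc17a7 (−0.697) were inverse to the set and Camk2a was nearly unrelated (−0.093).

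Markers of the striatum, which lies beside the BLA, had a median r of 0.227, with 4 of 9 positive in EEvSH (median −0.07) and 7 of 9 negative in ERvEE (median −0.21). Their summed values were 7136 to 14820 in SH, 8877 to 12750 in EE and 6400 to 13040 in ER. Tac1 (r = 0.827), Drd2 (0.737) and Rgs9 (0.526) were the most like the set, with log2 fold changes in ERvEE of −0.70, −0.90 and −0.70, whereas Drd1 (r = 0.108), Ppp1r1b (−0.025) and Adora2a (−0.387) were less so. Tac1 and Rgs9 are named after their values were seen. None of the markers in these 6 lists passed after adjustment. The share of white matter in each punch was not measured.

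**Figure D5:**
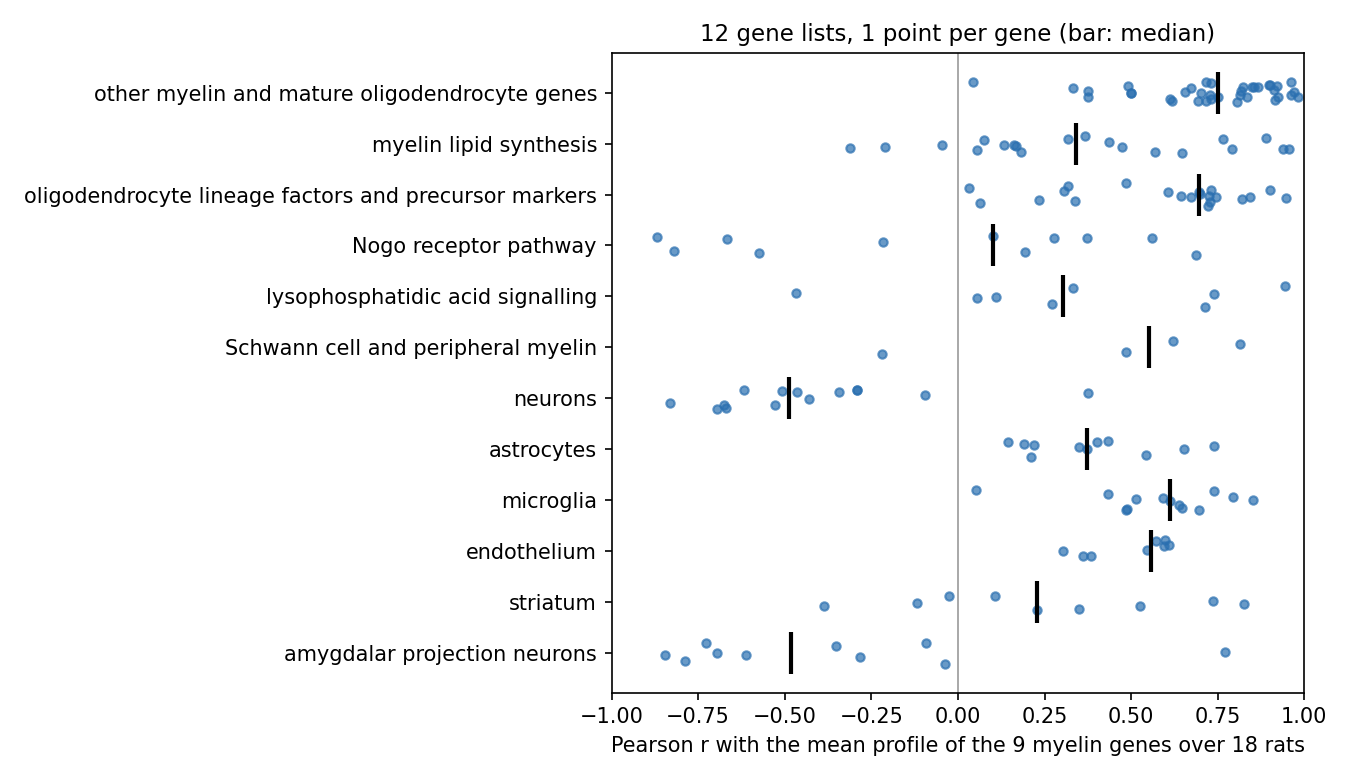
Pearson r over 18 rats between each gene of 12 lists (1 point per gene, black bar the median) and the mean profile of the 9 myelin genes. Other myelin genes (median 0.750) and lineage genes (0.696) lie on the right, neurons (−0.487) and amygdalar projection neurons (−0.483) on the left. The choroid plexus list is left out because only 1 of its genes had a mean of 10.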

How the data were processed

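Each of 18 rats gave 1 library, 6 for each housing condition, and the replicate spread is that between rats. The deposited values are a signal per gene made by the authors, who aligned single-end reads of polyadenylated RNA with HISAT2 and divided reads per gene by a size factor per library with DESeq2. The sources used here name no version, build, annotation or counting tool. The methods of the study do not say whether these libraries keep strand, or whether counting used it. Reads of an overlapping antisense gene may thus enter a value. In each library 100% of low values (up to 1000 reads) were whole multiples of 1 step within 0.01, which gave back the reads. For EE 3 this step lies near 1. No sample columns were left unused (0). The authors' own fold changes were not used.

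Genes with a mean above 1 (18172 of 19113) were fitted with limma 3.58.1 in R 4.3.3 on log2(value + 1), 1 model of 3 groups with an intensity trend and moderated variances, adjusted by the Benjamini-Hochberg method at a threshold of 0.05. On such a scale a fold change understates that of low genes, and more so the lower their values. Pairs of members were compared by permutation within groups in Python 3.11.15 with numpy 2.4.6. Alternatives used TMM and upper quartile factors from edgeR 4.0.16, other filters and pseudocounts (0.1 and 5), the 12 libraries of a contrast alone, and limma-voom, edgeR and DESeq2 1.42.0 on recovered reads. They also left out each library in turn, or SH 1 and SH 3, or used a replicate block. Scripts were tested on simulated data. The replicate numbers did not pair rats of different groups (correlations of deviations −0.083 to 0.13). Recovered counts differed between all 45 pairs of libraries of a group by more than sampling noise, so no library was counted more than 1 time within its group. Libraries of different groups were not compared in this way.

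Members and lists were chosen with earlier results of these data known. Text names the members, the first 4 tested genes of each of the 13 lists, in written order, and the 10 genes with the highest correlation with the members. A few of these genes are left out of the text. Cmtm5, Tppp, Lss, Msmo1, Sox8, Tcf7l2, Rtn4rl2, Pmp22, Sox2, Gja1, Gad1, Gad2, Tac1 and Rgs9 stand outside this rule. They were named after their values were seen. Of the list symbols 180 were found by name and 11 were not. Promoters are from RefSeq, build GRCr8, and serve for sequence alone, since the build of the files is not known.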

Additional observations from a re-analysis of the deposited data

How the results depend on the processing

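Across 30 alternatives, the 9 log2 fold changes of EEvSH kept their positive sign and stayed short of the threshold in 270 of 270 fits, and those of ERvEE their negative sign in 270 of 270 (smallest adjusted p 0.444 and 0.390, limma, edgeR and DESeq2 included). The median of the members ran from 0.23 to 0.48 in EEvSH, from −0.064 to 0.080 in ERvSH and from −0.52 to −0.27 in ERvEE. With TMM or upper quartile factors the medians of EEvSH and ERvEE kept their sign, and that of ERvSH turned from 0.0014 to −0.0064 and −0.0076.

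Counts at an unadjusted p under 0.05 depended on the tool. In EEvSH they were 6 with limma-voom (1564 of all genes), 5 with edgeR (1073) and 5 with DESeq2 (1153). In ERvEE they were 4 with the libraries of the contrast alone (1295 of all genes), 7 with limma-voom (1880), 5 with edgeR (665), 6 with DESeq2 (736) and 5 without SH 1 and SH 3 (1421). Leaving out each library in turn gave 1 to 9 such members in EEvSH and 0 to 9 in ERvEE, with 9 in both without EE 6. In ERvEE the count was 0 without EE 1, EE 5, ER 3 or ER 5. With the replicate block it was 4 in EEvSH (1009 of all genes) and 5 in ERvEE (669), and the block changed no adjusted call. The rats share a number and no stated pairing.

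Over all genes DESeq2 called 1 gene in EEvSH, 2 in ERvSH and 2 in ERvEE, where limma called 0 at 1067, 1434 and 665 genes with an unadjusted p under 0.05. Leaving out each library gave 0 to 1 in ERvEE. No called gene was a member.

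In ERvSH signs were unstable, with 32 of 270 values reversed over 6 members. The count of positive members was 3 with edgeR and 3 with DESeq2, and 1 to 7 on leaving out each library in turn (1 without SH 3). Mbp was 0.0375 with limma-voom and 0.034 without SH 1 and SH 3, Mag −0.0044 with edgeR and −0.0069 with DESeq2, and Mobp −0.048 with limma-voom and −0.0841 without SH 1 and SH 3. Cnp was −0.0064 with TMM, −0.0076 with upper quartile factors, −0.0102 with edgeR and −0.013 with DESeq2. Leaving out each library, Mbp ran from −0.0775 to 0.0802, Mog from −0.1092 to 0.0228, Mag from −0.0636 to 0.0984, Mobp from −0.0316 to 0.2531, Cnp from −0.0522 to 0.0743 and Opalin from −0.006 to 0.1668. These changes are small beside their standard errors, and the cause was not tested.

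The median correlation between members lay between 0.907 and 0.949 with TMM, with a pseudocount of 5 and without SH 1 and SH 3. Without the 2 rats farthest from the median of the first gene it was 0.845, and 0.844 with TMM as well. Depth does not limit these genes. The limits are 6 rats a group, shared enrichment cages and the unmeasured share of white matter in each punch.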
